A study of Homo sapiens with 20 samples.

Results

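Box H/ACA small nucleolar RNAs and small Cajal body RNAs were examined in nuclear RNA of HCT116, a human colorectal carcinoma line with wild-type p53. All gene rows whose symbol begins with SNORA (108 rows) or SCARNA (24 rows) were taken from both deposited tables, which gave 132 of 26485 rows at 130 distinct positions. SNORA59A and SNORA59B share their coordinates, as do SNORA11D and SNORA11E, so each such pair holds the same reads under both names. The rows are 121 to 421 bases long, with a median of 134.

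The cells were electroporated with a p53-Mediator blocking peptide or with water and then kept for 3 hours with Nutlin-3a or DMSO alone, in 2 experiments. The groups were Nutlin with peptide (10 µM Nutlin-3a and 10 µM peptide), Nutlin with water (10 µM Nutlin-3a), DMSO with peptide (10 µM peptide) and DMSO with water. Nutlin-3a frees p53 from its inhibitor MDM2, and the peptide, called stapled in the study's title and bivalent in the treatment labels, was designed to keep p53 from binding the coactivator Mediator. All cells received 0.1% DMSO, and wells with peptide-loaded cells also received 200 nM peptide in the medium. Each of the 4 conditions had 3 libraries in experiment 2 and 2 in experiment 1, which made 12 and 8 libraries. All libraries were nuclear RNA depleted of ribosomal RNA and made with a directional kit. No label ties a replicate to a separate culture, so p-values measure the spread between these libraries, which may be technical.

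Box H/ACA RNAs fold into paired hairpins joined by a hinge called the H box and end in a short tail with the bases ACA. With the proteins dyskerin (DKC1), NHP2, NOP10 and GAR1 they guide the change of uridine to pseudouridine, mostly in ribosomal RNA. Small Cajal body RNAs do the same, or guide 2′-O-methylation as box C/D RNAs do, on the spliceosomal small nuclear RNAs, and the protein WRAP53 holds many of them in Cajal bodies. Most human RNAs of both kinds are cut from introns of other genes, called hosts, and a few have a promoter of their own.

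Members differed most between the 2 experiments, and 5 of them are printed here: SNORA73A, SCARNA5, SNORA66 and SNORA31 from the ends of that difference, and SNORA64 as 1 of the highest per kilobase in both experiments. The terminal ACA is in capitals where it lies 3 bases before the annotated end. The sequences are GENCODE release 29 transcripts on GRCh38, written as DNA. SNORA73A (chr1:28507366-28507571, plus strand) and SCARNA5 (chr2:233275727-233276002, plus strand) were far lower in experiment 2, whereas SNORA66 (chr1:92840719-92840851, plus strand) and SNORA31 (chr13:45337480-45337609, minus strand) were far higher there, and SNORA64 (chr16:1962973-1963106, minus strand) was higher by less.
SNORA73A: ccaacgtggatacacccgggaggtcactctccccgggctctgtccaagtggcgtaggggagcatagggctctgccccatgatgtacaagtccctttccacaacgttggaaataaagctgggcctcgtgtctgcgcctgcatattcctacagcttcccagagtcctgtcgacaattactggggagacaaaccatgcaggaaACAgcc
SCARNA5: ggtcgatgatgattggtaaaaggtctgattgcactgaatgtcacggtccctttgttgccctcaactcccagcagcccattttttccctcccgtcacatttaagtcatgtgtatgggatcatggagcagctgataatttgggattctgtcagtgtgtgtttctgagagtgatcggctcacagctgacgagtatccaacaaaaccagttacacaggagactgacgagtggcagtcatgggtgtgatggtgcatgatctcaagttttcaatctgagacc
SNORA66: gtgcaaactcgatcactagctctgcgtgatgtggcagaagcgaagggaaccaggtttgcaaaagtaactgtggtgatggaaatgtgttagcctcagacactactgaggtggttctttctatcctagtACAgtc
SNORA31: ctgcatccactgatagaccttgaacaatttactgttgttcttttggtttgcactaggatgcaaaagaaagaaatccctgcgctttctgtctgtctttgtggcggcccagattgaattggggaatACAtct
SNORA64: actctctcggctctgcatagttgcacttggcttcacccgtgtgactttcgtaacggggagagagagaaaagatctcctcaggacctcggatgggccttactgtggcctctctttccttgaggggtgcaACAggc
SNORA73A and SCARNA5 are 206 and 276 bases long as annotated, and SNORA66, SNORA31 and SNORA64 are 133, 130 and 134. A search of the annotated strand for ACANNN at the 3′ end found it in 70 of 94 SNORA members with a GENCODE sequence (74.5%), in 11 of 21 SCARNA members (52.4%) and in 4 of 288 GENCODE transcripts of box C/D RNAs named SNORD (1.39%). SCARNA5, a mixed RNA with box C/D and box H/ACA parts, has no ACA at that distance.

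Levels are given as reads out of 1000000 reads of all rows in a library (RPM), recovered from the deposited values. Library depth over all rows ran from 18787172 to 47407746 reads in experiment 2, against 36717795 to 63896604 reads for the libraries of experiment 1. The epithelial genes EPCAM (367 RPM in experiment 2 and 89.0 in experiment 1) and KRT8 (1556 and 1124 RPM) were abundant, while the leukocyte gene PTPRC (0.0313 and 0.0210 RPM) and the collagen gene COL1A2 (0.00176 and 0 RPM) were at or near 0. The leukocyte gene CD14 had 0.155 to 6.45 RPM in experiment 2 and 0 to 0.325 RPM in experiment 1, and the fibroblast gene PDGFRB had 0 to 3.54 RPM and 0.0701 to 0.347 RPM, while CD3E averaged 0.0151 and 0.0128 RPM. The epithelial gene CDH1 had 10.5 to 96.3 RPM in experiment 2 and 43.3 to 54.6 RPM in experiment 1. Of the endothelial genes, VWF averaged 0.533 RPM in experiment 2 and 1.48 RPM in experiment 1, PECAM1 0.479 and 0.466 RPM, and CDH5 0.0276 and 0.0705 RPM. The part of these genes in the results was not tested. The 26 structural RNA rows, of ribosomal RNA, 7SK, 7SL, RMRP and RPPH1, made up 0.619% to 3.54% of a library in experiment 2, against 15.0% to 24.9% of a library from experiment 1. In experiment 1, Nutlin with water replicate 2 stood apart, with 43.5% of its reads in its top 10 rows against 25.1% to 30.4% in the other 7 libraries. Nutlin results are given without it where this is stated, and otherwise include it.

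All members together held 2720, 3508 and 5129 RPM (lowest, median and highest library) in experiment 2 and 1712, 1993 and 2904 RPM in experiment 1. SNORA rows held 2629, 3400 and 5062 RPM in experiment 2, against 1334, 1582 and 2411 RPM in experiment 1. SCARNA rows went the other way, with 66.6, 98.8 and 111 RPM in experiment 2 and 274, 406 and 492 RPM in experiment 1. The libraries of the experiments did not overlap in the SNORA sum, nor in the SCARNA sum. In bulk RNA, fewer cells and less RNA per cell cannot be told apart, and neither can the experiment and whatever else differed between the 2 sets of libraries, which differ in the labels only by experiment number.

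Of the 132 members, 116 averaged 0.5 RPM or more across the 20 libraries, and they were tested among 15958 rows. A row was called where its adjusted p from limma fell under 0.05. In experiment 2 against experiment 1, 48 members rose and 47 fell, which is 81.9% of those tested, where 71.4% of all rows were called. Over all rows 38.3% rose and 33.1% fell. Rose and fell refer to this test, which counts 20 libraries. Same-numbered libraries of an experiment deviated together, however, so these p-values are too small. With each same-numbered set averaged over its 4 conditions, which leaves 3 sets in experiment 2 and 2 in experiment 1, 27 members rose and 27 fell, 46.6% of those tested, where 33.6% of all rows were called (16.8% upward and 16.8% downward). This fit over sets was added after the data were seen, and its counts stand beside those over libraries.

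The median log2 change of members was 0.03, against 0.09 over all rows tested. Without the library scaling (TMM) the median of all rows was 0.42, a shift of 0.33, and the split of members was 58 higher and 36 lower. In 38 members every library of experiment 2 was above every library of experiment 1, as in 32.3% of all tested rows, and in 21 members every library was below, as in 10.3%.

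The members that fell most were long ones, and several guide modification of the spliceosomal RNAs or cleavage of the ribosomal RNA precursor. SCARNA2, a box C/D RNA that directs methylation of the U2 small nuclear RNA and has no host row on its strand, had 0.258, 0.495 and 1.09 RPM in experiment 2 (lowest, median and highest library) and 75.1, 101 and 119 RPM in experiment 1. That is 5 to 33 reads per library in experiment 2, against 3675 to 6748 in experiment 1. Its log2 change was -6.89 ± 0.15 (SE, adjusted p = 5.1e-18, n = 12 and 8), the largest of any member. The telomerase RNA TERC, an H/ACA RNA outside the list, moved likewise, with 0.572 RPM in experiment 2 and 63.0 RPM in experiment 1 (log2 change -6.20 ± 0.11, adjusted p = 3.7e-19).

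The paired copies SNORA73A and SNORA73B, known as U17, act in cleavage of the ribosomal RNA precursor and sit in the noncoding host gene SNHG3. SNORA73A had 2.66, 4.53 and 5.61 RPM in experiment 2 and 187, 271 and 505 RPM in experiment 1. SNORA73B had 2.96, 5.43 and 9.83 RPM in experiment 2 and 192, 256 and 505 RPM in experiment 1. Both were the highest members of experiment 1 in reads per kilobase (1509 and 1833 RPM per kilobase there), and neither overlapped between experiments. They fell by 6.31 ± 0.20 (adjusted p = 2.8e-15) and by 5.83 ± 0.23 (adjusted p = 7.9e-14) on the log2 scale. The copies are near-identical over much of their length, so the split of reads between them is uncertain.

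Mixed Cajal body RNAs, which carry both box types, fell in 4 of 4 (SCARNA5, SCARNA6, SCARNA10 and SCARNA12). SCARNA10, known as U85 and a guide for both kinds of modification of the U5 RNA, had 0.632, 1.08 and 6.85 RPM in experiment 2, against 28.4, 68.3 and 72.2 RPM in experiment 1 (log2 change -5.03 ± 0.40, adjusted p = 2e-09). Within experiment 2 the 4 libraries numbered 2, 1 of each condition, had 5.41 to 6.85 RPM, against 0.632 to 1.2 RPM in the other 8. Its host row NCAPD2 varied there too, the highest library being 7.95 times the lowest, against 10.8 times for SCARNA10. The log2 difference of SCARNA10 and its host ran from -6.80 to -5.14 in experiment 2. SCARNA5 had 0.717, 1.05 and 1.84 RPM in experiment 2 and 21.8, 37.6 and 41.5 RPM in experiment 1, a log2 change of -4.85 ± 0.13 (adjusted p = 2.1e-16). Its neighbour in the same host, SCARNA6, averaged 1.62 and 23.9 RPM, and SCARNA12 fell least, at -1.42 ± 0.16 (adjusted p = 2.6e-07).

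Box C/D Cajal body RNAs fell in 3 of 4. Beside SCARNA2 these were SCARNA7, at 4.42 RPM in experiment 2 and 14.1 RPM in experiment 1 on average, and SCARNA17, at 1.82 and 5.28 RPM. SCARNA9, a guide for U2, averaged 3.37 and 2.65 RPM and was not called (log2 change -0.03 ± 0.26, adjusted p = 0.93), and its sign turned in the settings listed in the closing part. Of 9 tested H/ACA Cajal body RNAs, 2 rose and 5 fell. SCARNA13 (-3.69 ± 0.10) and SCARNA16 (-3.20 ± 0.15) fell most and SCARNA11 (1.13 ± 0.18, adjusted p = 1.2e-05) and SCARNA15 (0.92 ± 0.14) rose, neither of these over sets (adjusted p = 0.051 and 0.054). SCARNA1 fell by 1.36 ± 0.18 and SCARNA8 by 0.52 ± 0.17, and the call of SCARNA8 was lost over sets (adjusted p = 0.28) and without library scaling, at -0.29. In all, 5 of 23 tested SCARNA members rose and 15 fell, with a median of -0.80, where 38.3% of all rows rose and 33.1% fell. Over sets 1 rose and 11 fell, among them the 4 mixed RNAs and SCARNA2, SCARNA7 and SCARNA17.

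Among SNORA members 43 of 93 tested rose and 32 fell, with a median of 0.25. That is 80.6% called, where 71.4% of all rows were called, 38.3% upward and 33.1% downward. Over sets 26 rose and 16 fell, where 16.8% of all rows were called in each direction. The falls were thus near the share of all rows in both counts. Of the 8 members with the largest rise, 6 lie in ribosomal protein genes and the other 2 in TPT1 and EEF1B2. SNORA66 lies in an intron of RPL5, the gene of a protein of the large ribosomal subunit, and had 99.5, 169 and 223 RPM in experiment 2, against 2.74, 6.93 and 8.04 RPM in experiment 1. Its log2 change was 4.22 ± 0.17 (adjusted p = 7.9e-14), the largest rise of any member. SNORA31, in the TPT1 gene of a translationally controlled protein, had 112, 189 and 403 RPM in experiment 2 and 6.19, 18.2 and 28.0 RPM in experiment 1 (log2 change 3.22 ± 0.30, adjusted p = 1.4e-08). Neither member overlapped between the experiments.

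SNORA65 in RPL12 averaged 139 RPM in experiment 2 and 12.4 RPM in experiment 1 (log2 change 3.03 ± 0.18). SNORA41, in the gene of the elongation factor subunit EEF1B2, averaged 45.2 and 4.23 RPM (2.91 ± 0.23). SNORA45B in RPL27A, SNORA33 in RPS12 and SNORA69 in RPL39 rose by 2.68 ± 0.20, 2.68 ± 0.21 and 2.55 ± 0.17 on the log2 scale. All of these were above every library of experiment 1 in every library of experiment 2. The members in ribosomal protein genes rose in 15 of 15, with a median of 2.07 and a range of 0.83 to 4.22. Over sets 14 rose, without SNORA52 (adjusted p = 0.11). Only members whose host row has the same coordinates in both experiments were placed, so others in such genes may be missing from the 15. Members in SNHG genes, which are noncoding hosts and were placed by the same rule, rose in 4 of 20 and fell in 11, with a median of -0.68. Over sets 0 rose and 9 fell. Of all rows 38.3% rose and 33.1% fell, and over sets 16.8% were called in each direction. Both groups were formed after the values were seen.

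**Figure D1:**
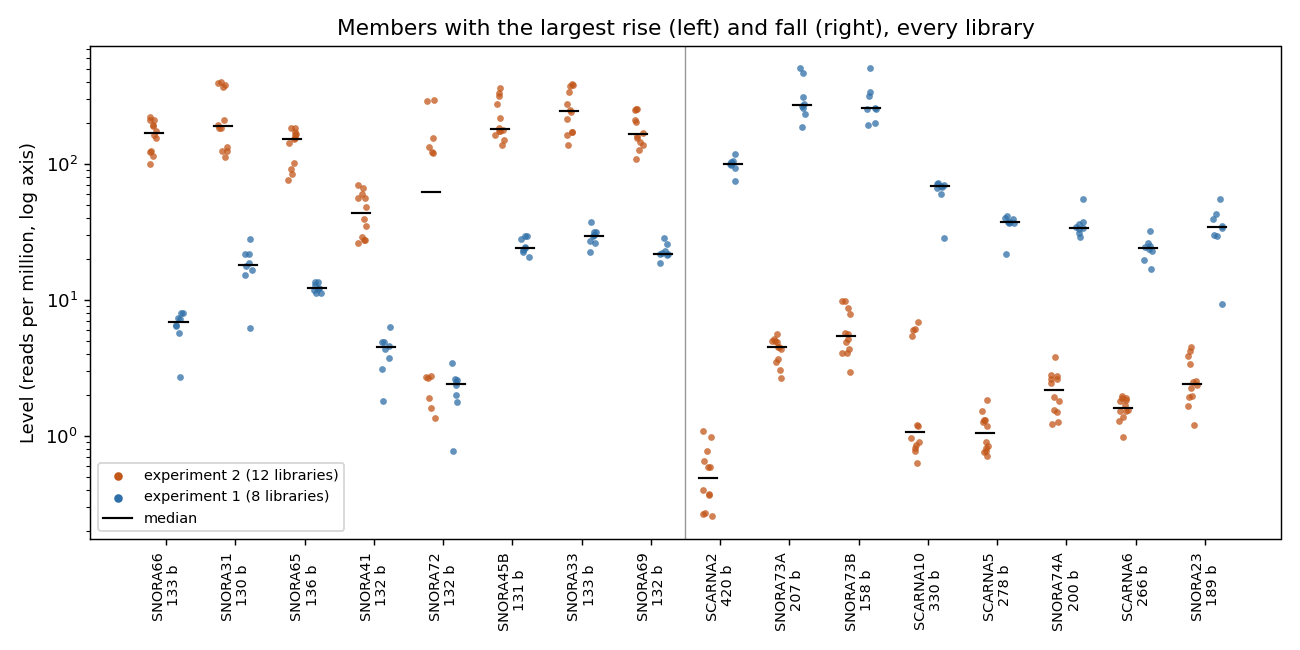
RPM on a log axis for the 8 members with the largest rise (left of the line) and the 8 with the largest fall (right), with experiment 2 left of experiment 1 for each member, points for libraries, a line for the median and the row length in bases under each name. SNORA66 lies between 99.5 and 223 RPM in experiment 2 and between 2.74 and 8.04 RPM in experiment 1, SCARNA2 lies far lower in experiment 2, and SNORA72 and SCARNA10 split into high and low libraries within experiment 2.

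Per kilobase, the highest members differed between the experiments. In experiment 2 the order was SNORA10 (2068 RPM per kilobase), SNORA64 (1987), SNORA33 (1948), SNORA31 (1807), SNORA70 (1710), SNORA45B (1693), SNORA69 (1374) and SNORA66 (1244), of which SNORA31 lies in TPT1 and the others in ribosomal protein genes. SNORA10 and SNORA64, both in RPS2, had overlapping libraries, with 178, 256 and 422 RPM for the first and 199, 261 and 321 RPM for the second in experiment 2. In experiment 1 SNORA73B (1833 RPM per kilobase) and SNORA73A (1509) led, followed by SNORA10 (541), SNORA64 (501), SNORA48 (439), SNORA68 (307), SNORA70 (301) and SNORA52 (295). SNORA10 and SNORA64 thus followed the SNHG3 pair in experiment 1 although they rose by 1.51 ± 0.23 and 1.62 ± 0.14 on the log2 scale.

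The rows that did not pass the level filter were mostly extra copies of RNAs with many genomic copies, such as SNORA70B to SNORA70G. They were SCARNA23 and 15 SNORA rows, and 4 of the 16 (SNORA11D, SNORA11E, SNORA35 and SNORA70C) had no read in any library. With 0 reads, up to 3 counts per library are allowed, which is 0.0633 to 0.160 RPM in the libraries of experiment 2 and 0.0470 to 0.0817 RPM in those of experiment 1, for counting error only. Reads of copies could be placed on another copy by the aligner, and how the authors placed them is not given in the sources used here.

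Members were split by length. Of 23 tested members longer than 150 bases, 3 rose and 18 fell, with a median log2 change of -1.78. Of 93 members of at most 150 bases 45 rose and 29 fell, with a median of 0.42, where 38.3% of all rows rose and 33.1% fell. Many of the long members are SCARNA rows, so the split by length overlaps with that by name. SNORA59A and SNORA59B, both among the 18 falls, are the same reads. Over sets 1 of the long members rose and 14 fell, and 26 of the shorter ones rose and 13 fell, where 16.8% of all rows were called in each direction. The long members that rose were SNORA62 (2.36 ± 0.19, adjusted p = 1.7e-09), SNORA81 (0.63 ± 0.18, adjusted p = 0.0046) and SNORA58 (0.52 ± 0.19, adjusted p = 0.023), of which SNORA81 and SNORA58 lost the call over sets (adjusted p = 0.18 and 0.33), while SNORA74B (0.15 ± 0.14, adjusted p = 0.34) and SCARNA9 were not called. The medians of the long and the short members kept their signs without library scaling (-1.44 and 0.65) and with median-ratio scaling (-1.84 and 0.37). The length at which members were split was chosen after the values were seen. With a split at 160 bases 2 long members rose and 15 fell of 19, and with a split at 200 bases 1 rose and 11 fell of 14. Across 94 members with a comparable host, change and length had a Spearman correlation of -0.47, given as a description, since members share libraries and some share a host.

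Of the members, 114 had a host row on the same strand, 72 of them within an intron and 36 overlapping an exon of an annotated host transcript, and 18 had none. For 103 the host row had the same coordinates in both tables, and 94 of those passed the filter. Host reads include those of the small rows within: after the small rows were subtracted, 1 of 80 host rows of members went below 0 in any library. Per kilobase, members and hosts went together across these 94, with a Spearman correlation of 0.92 in experiment 2 and 0.72 in experiment 1, hosts taken without the small rows. The members' change between experiments and that of their hosts had a Spearman correlation of 0.69 over the 94, 0.76 for the 74 members of at most 150 bases and 0.31 for the 20 longer ones. These are descriptions across members, and a host with several members enters several times.

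**Figure D2:**
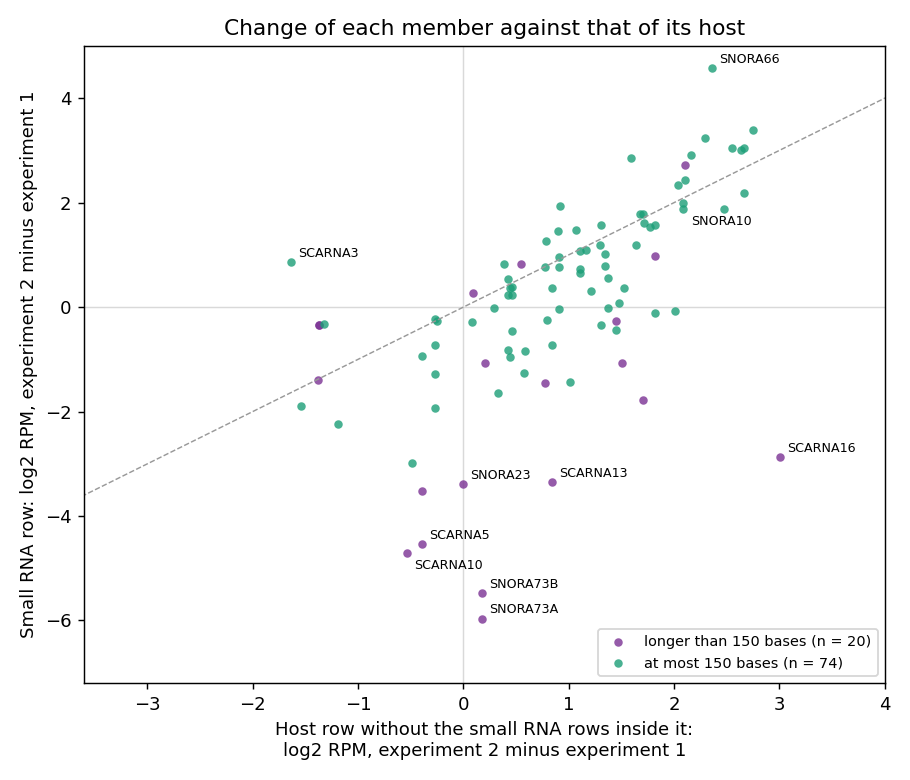
Log2 change in RPM (experiment 2 minus experiment 1) of 94 members, up the page, against that of their host rows without the small rows inside them, across it, with purple points for members longer than 150 bases and a dashed line where both changes are equal. SNORA66 lies above the line, while SNORA73A, SNORA73B, SCARNA10, SCARNA5 and SNORA23 lie far below it, with host changes between -0.53 and 0.17.

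The difference of member and host on the log2 scale was tested over all 806 pairs of a row and its host. This cancels library scaling apart from the 0.5 RPM added before taking logs. The inner row of a pair can be of any kind, not only a small RNA. Of the 806 pairs, 94 are those of members and 119 those of box C/D rows. Of 94 members, 20 rose against their host in experiment 2 and 47 fell, 71.3% in all, where 68% of the 806 pairs were called, 39.6% upward and 28.4% downward. The median was -0.31 over members and 0.09 over all pairs. With the small rows taken out of the host reads, an alternative added after the data were seen, 20 rose and 49 fell, where 69.5% of all pairs were called, 40.8% upward and 28.7% downward. Of the 20 members longer than 150 bases, 4 rose and 14 fell, and of the 74 shorter ones 16 rose and 33 fell. SNORA59A and SNORA59B, 2 of these 4 rises, are the same reads. With the split at 160 bases 1 of 16 longer members rose and 13 fell, and at 200 bases 1 of 12 rose and 9 fell. Over sets 6 members rose against their host and 32 fell, where 37.1% of all pairs were called, 23.6% upward and 13.5% downward. None of the 20 members longer than 150 bases rose then and 12 fell, and 6 of the 74 shorter ones rose and 20 fell.

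SCARNA3, in the RFWD2 gene of a ubiquitin ligase, rose most against its host, at 2.44 ± 0.13 (adjusted p = 1.3e-11). It averaged 2.03 RPM in experiment 2 and 0.892 RPM in experiment 1, while RFWD2 averaged 42.9 and 134 RPM. SNORA66 rose by 2.11 ± 0.084 against RPL5 (adjusted p = 2e-13), which itself averaged 1470 RPM in experiment 2 and 268 RPM in experiment 1. Its share of the reads of the RPL5 row was 11.3% in experiment 2 and 2.43% in experiment 1. SNORA75, in the gene of nucleolin (NCL), rose by 1.23 ± 0.10, SNORA59A and SNORA59B, which are 1 position in VPS13D, by 1.01 ± 0.27, and SNORA77 in ATP2B4 by 0.98 ± 0.26. Over sets the calls of SNORA59A and SNORA59B (adjusted p = 0.12) and of SNORA77 (adjusted p = 0.14) were lost.

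The largest falls against a host were in SCARNA10 within the condensin gene NCAPD2 (-3.82 ± 0.23) and in SNORA73A within SNHG3 (-3.79 ± 0.13). NCAPD2 averaged 197 RPM in experiment 2 and 272 RPM in experiment 1. SNHG3 averaged 160 and 738 RPM, and without the small rows inside it 149 and 136 RPM. SNORA73A thus held 2.71% of the SNHG3 reads in experiment 2 and 42.3% in experiment 1, and against the rest of the host its fall was 6.14 ± 0.26. SNORA73B (-3.30 ± 0.17), SCARNA5 within the autophagy gene ATG16L1 (-3.20 ± 0.12) and SNORA23 within the importin gene IPO7 (-3.20 ± 0.12) followed. SNORA53 in the SLC25A3 gene of the mitochondrial phosphate carrier had -3.34 ± 0.96 (adjusted p = 0.0047), with the library split described further on, and it was not called over sets (adjusted p = 0.052).

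Of the members in ribosomal protein genes, 7 of 15 rose against the host and 3 fell, with a median of 0.25, and over sets 2 rose and 1 fell. SNORA64 (-0.08 ± 0.074), SNORA10 (-0.18 ± 0.10) and SNORA33 (0.12 ± 0.070) did not pass the test, though SNORA33 rose by 0.49 ± 0.073 against its host without the small rows (adjusted p = 1.4e-05). Some small rows hold much of the reads of their host row. SNORA78 was 59.7% of the reads of SNHG9 in experiment 2 and 51.7% in experiment 1, and SCARNA17 55.9% and 56.8% of those of SNHG22. SCARNA13, by contrast, was 24.1% of the SNHG10 reads in experiment 2 and 87.6% in experiment 1.

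The read density of a member relative to its host span, in reads per kilobase, was compared by length. For the 20 members longer than 150 bases the median ratio was 3.42 in experiment 2, against 11.2 for experiment 1, and split at 160 bases the 16 longer members had 2.64 and 9.98. For the 74 members of at most 150 bases the medians were 3.04 and 4.15. Host reads here include the small rows. For SNORA73A the ratio was 0.649 in experiment 2 and 10.1 in experiment 1, and without the small rows in SNHG3 it was 0.694 and 54.96.

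**Figure D3:**
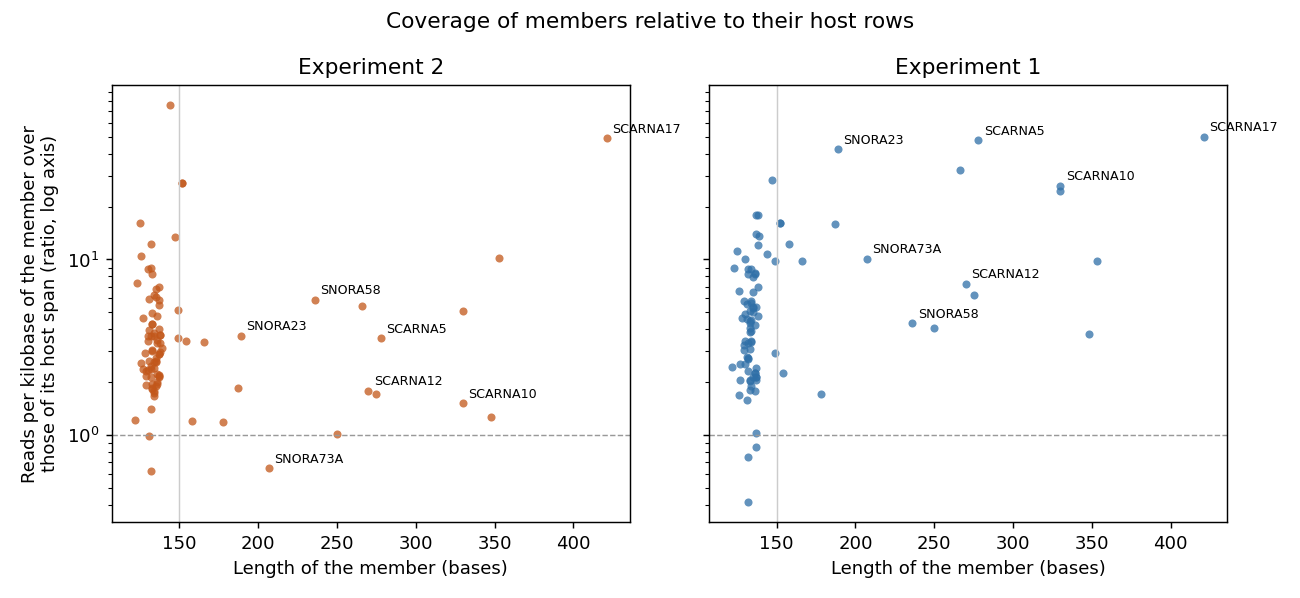
Reads per kilobase of 94 members divided by those of their host span, on a log axis, against the length of the member in bases, in experiment 2 (left panel) and experiment 1 (right panel), with a dashed line at equality and a grey line at 150 bases. The 20 members longer than 150 bases have a median ratio of 3.42 in experiment 2, against 11.2 for experiment 1, and the 74 shorter ones 3.04 and 4.15.

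Members that share a host allowed a comparison within it. There were 29 such pairs from 16 hosts, and in 15 the log2 ratio of the 2 members did not overlap between the libraries of the experiments. Each pair was ordered by its members' own change between the experiments, and some members enter several pairs. The share over other rows that share a host was not computed, so the 15 only describe these pairs. Averaged over same-numbered sets, 5 values allow 10 regroupings and an exact two-sided permutation test cannot go below p = 0.1, which 22 pairs reached, so none can pass at 0.05. In EIF4A1, the gene of a translation helicase, SNORA67 and SNORA48 went apart. SNORA67 averaged 73.8 RPM in experiment 2 and 24.5 RPM in experiment 1, whereas SNORA48 averaged 47.7 and 59.3 RPM. The ratio of SNORA67 to SNORA48 was 0.68 on the log2 scale in experiment 2 and -1.23 in experiment 1, a difference of 1.91, with no overlap of libraries (0.19 to 1.04 in experiment 2 and -1.59 to -1.04 in experiment 1). In EIF4A2 the ratio of SNORA4 to SNORA63 was -0.19 and -1.86. SNORA81 lies in EIF4A2 too and averaged 18.5 and 9.09 RPM.

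In other pairs the libraries overlapped. SNORA64 over SNORA10 in RPS2 was 0.01 in experiment 2 and -0.10 in experiment 1, and SNORA73B over SNORA73A was 0.39 and -0.10. In RPSA, the gene of a protein of the small ribosomal subunit, SNORA62 averaged 166 RPM in experiment 2, against 24.2 RPM in experiment 1. SNORA6 of the same host averaged 167 and 30.4 RPM, and both rose, while their ratio differed by 0.29 on the log2 scale, with overlapping libraries.

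A few members were either high or nearly absent from library to library within experiment 2. Among 59 members with a mean of at least 5 RPM there, the highest library was more than 10 times the lowest in 4, SNORA72, SNORA53, SNORA14B and SNORA55, while the next, SNORA19, reached a ratio of 7.31 and the median over tested members was 2.70. SNORA72, in an intron of the ribosomal protein gene RPL30, had 2.71, 123 and 133 RPM in Nutlin with peptide (replicates 1 to 3), 2.69, 1.60 and 121 RPM in Nutlin with water, 297, 1.36 and 154 RPM in DMSO with peptide, and 289, 1.89 and 2.77 RPM in DMSO with water. It was thus at 121 to 297 RPM in 6 libraries and at 1.36 to 2.77 RPM in the other 6, with none between. RPL30 had 714 to 1648 RPM in the first 6 and 654 to 1562 RPM in the others, so the host did not split. In experiment 1 all 8 libraries had 0.777 to 3.43 RPM of SNORA72. Of 64 members with a mean of at least 5 RPM in experiment 1, 1 had a ratio over 10 there, SNORA14B.

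SNORA53 had 30.8, 0.425 and 1.32 RPM in Nutlin with peptide, 0.728, 32.6 and 46.3 RPM in Nutlin with water, 35.4, 0.258 and 50.5 RPM in DMSO with peptide and 32.3, 0.577 and 47.3 RPM in DMSO with water of experiment 2. In experiment 1 it had 13.3 to 47.0 RPM in all 8 libraries. SNORA14B, in TOMM20, a gene of the mitochondrial import receptor, had 21.6, 19.0 and 0.439 RPM in Nutlin with peptide, 0.273, 19.3 and 13.9 RPM in Nutlin with water, 19.7, 17.9 and 15.2 RPM in DMSO with peptide and 0.551, 0.577 and 0.585 RPM in DMSO with water. In experiment 1 SNORA14B was at 1.02 to 2.33 RPM in 3 libraries and at 8.44 to 11.6 RPM in the other 5, while TOMM20 had 75.7 to 175 RPM. The low and the high libraries of SNORA72 and SNORA53 in experiment 2 were spread over conditions. SNORA14B went in part with condition, being low there in all 3 DMSO with water libraries and high in all 3 DMSO with peptide libraries. In experiment 1 its 3 low libraries all had peptide, while every library with water and Nutlin with peptide replicate 2 were high. Whether condition plays a part in this split was not tested here. SNORA55, in the gene of the poly(A)-binding protein PABPC4, was at 0.589 and 0.659 RPM in 2 libraries and at 10.5 to 14.3 RPM in the other 10, and at 0.737 to 3.57 RPM in all 8 libraries of experiment 1. In experiment 2 the host rows of these 3 stayed within 629 to 808 RPM (SLC25A3), 481 to 637 RPM (TOMM20) and 335 to 419 RPM (PABPC4).

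**Figure D4:**
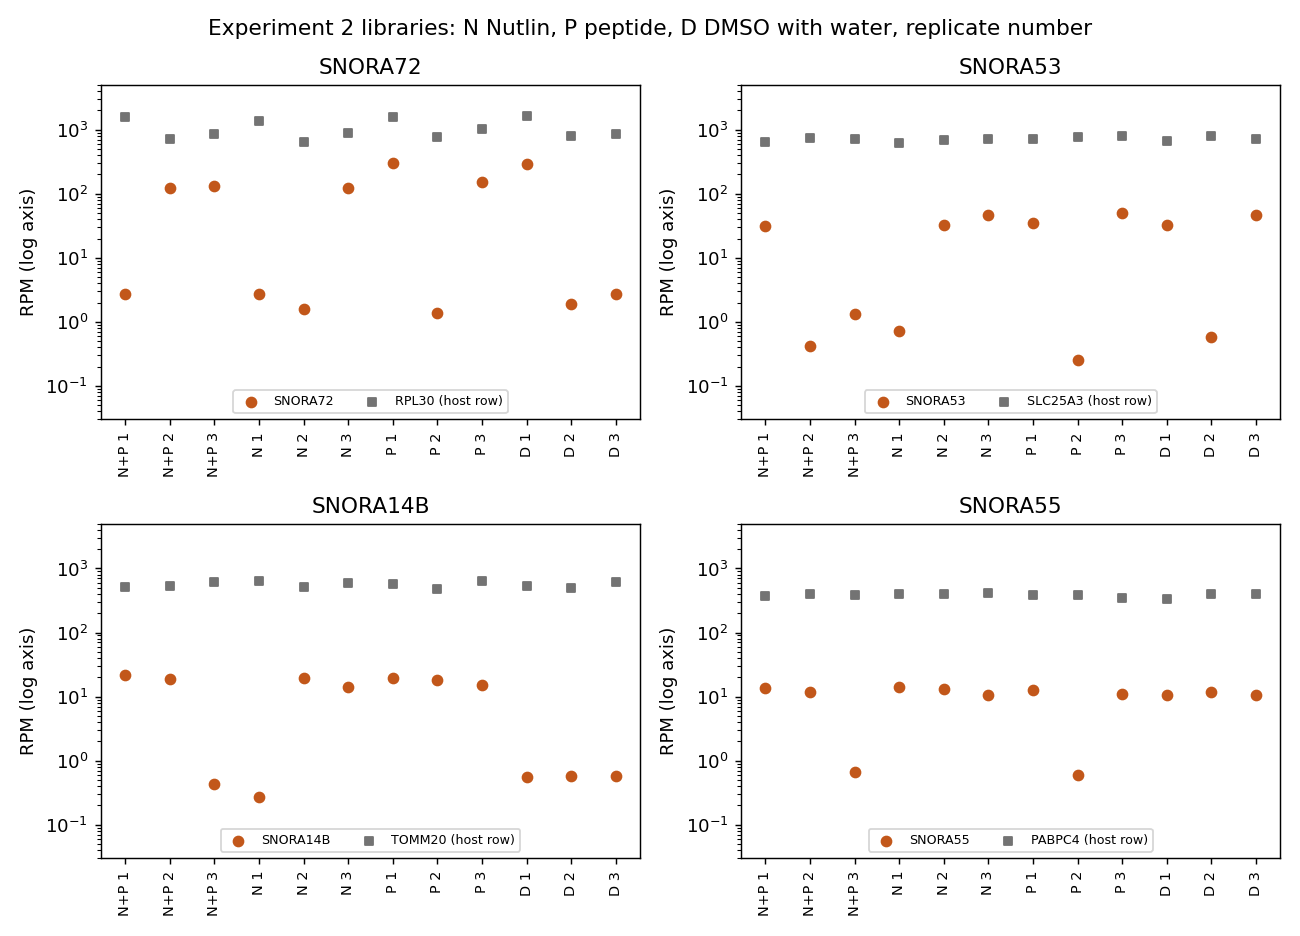
RPM on a log axis in the 12 libraries of experiment 2 (N+P Nutlin with peptide, N Nutlin with water, P DMSO with peptide, D DMSO with water, with the replicate number) for 4 members as circles and their host rows as grey squares. SNORA72 is at 121 to 297 RPM in 6 libraries and at 1.36 to 2.77 RPM in 6, while RPL30 stays between 654 and 1648 RPM.

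The split makes the experiment comparison of these rows depend on few libraries. SNORA72 had a log2 change of 2.70 ± 1.09 (adjusted p = 0.033), and the call was lost, at 2.24 to 2.71, without any 1 of 10 libraries. In experiment 2 these were the high libraries, namely Nutlin with peptide replicates 2 and 3, Nutlin with water replicate 3, DMSO with peptide replicates 1 and 3 and DMSO with water replicate 1. In experiment 1 they were Nutlin with peptide replicate 1, Nutlin with water replicate 2 and both DMSO with peptide libraries. SNORA53 fell by 2.11 ± 0.92 (adjusted p = 0.048, and 0.092 over sets), and SNORA14B was not called (-0.37 ± 0.78, adjusted p = 0.68). SNORA53, SNORA14B and SNORA55 were singled out here after their values were seen.

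The conditions addressed whether p53 activation by Nutlin-3a, and the peptide, changed these RNAs. No member was called by limma in Nutlin with water against DMSO with water, where 0.0% of all rows were called, nor in the peptide comparisons, where it was 0.0% too. This fit does not pair same-numbered libraries, which deviated together, so its condition p-values and SEs tend to be too large. At an unadjusted p under 0.05, 0 of 116 members were higher or lower with Nutlin, 2 were higher with peptide under Nutlin (SNORA38B and SCARNA7, 1.72%) and 0 with peptide under DMSO. Over all rows, 0.445% were higher and 0.15% lower with Nutlin, 0.188% and 0.295% with peptide under Nutlin, and 0.0564% and 0.0376% with peptide under DMSO. limma-voom on whole reads called 0 in each comparison, as did the fit with the replicate number as a block. In the blocked fit, an unadjusted p under 0.05 was reached by 2 higher and 4 lower members with Nutlin, by 23 higher and 1 lower with peptide under Nutlin, and by 1 higher and 3 lower with peptide under DMSO. The 23 are 19.8% of members, where 4.17% of all rows were higher and 3.8% lower. Over all rows the other shares were 3.47% higher and 3.94% lower with Nutlin, and 0.583% and 0.539% with peptide under DMSO. The check of Nutlin was the p53 target CDKN1A together with MDM2. With Nutlin, CDKN1A had a log2 change of 1.18 ± 0.29 (adjusted p = 1.0, unadjusted p = 0.00071). MDM2, whose row differs in coordinates between the experiments, had 0.96 and did not reach an unadjusted p under 0.05. Their changes in experiment 2 minus those in experiment 1 were -1.30 and -0.49, 1 of them at an unadjusted p under 0.05 by limma. The values of this check and the blocked counts include the library that stood apart. As neither CDKN1A nor MDM2 was called by the unpaired fit, its 0 calls do not show that members were unchanged.

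With Nutlin the median log2 change of members was -0.06, with 39 above 0 and 77 below, against -0.02 over all rows. Within experiment 2 it was -0.09, with 35 above 0 and 81 below, and within experiment 1 it was 0.05, with 65 above and 51 below. Without Nutlin with water replicate 2 of experiment 1 the median was -0.03 over both experiments, with 42 above 0, and 0.03 within experiment 1, with 68 above 0. The smallest unadjusted p-values belonged to SNORA77, SCARNA20, SCARNA7 and SNORA27. SNORA77 had 0.546, 1.54 and 0.544 RPM in Nutlin with water of experiment 2 and 1.29 and 0.899 RPM in experiment 1, against 0.501, 0.840 and 0.254 RPM and 0.599 and 0.688 RPM in DMSO with water. After library scaling it was higher with Nutlin in 4 of 5 same-numbered comparisons, with a log2 change of 0.44 ± 0.22 (adjusted p = 1.0). SNORA27 was lower with Nutlin in 5 of 5 (-0.30 ± 0.18) and SCARNA20 in 5 of 5 (-0.31 ± 0.17), both with adjusted p = 1.0. SCARNA7 had -0.45 ± 0.27 with all libraries and -0.09 ± 0.16 without the one that stood apart, while SNORA77 had 0.44 ± 0.24, SNORA27 -0.27 ± 0.20 and SCARNA20 -0.27 ± 0.18 without it.

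With peptide under Nutlin 102 of 116 members were above 0 and 14 below, with a median log2 change of 0.19, against 0.03 and 58.5% above 0 over all rows. The same was seen in 73 of 88 host rows, with a median of 0.11. Within experiment 2 the median was 0.06 and within experiment 1 it was 0.38, and the difference of these medians was not tested. Without Nutlin with water replicate 2 of experiment 1, the library that stood apart, 97 were above 0 and the median was 0.14, and within experiment 1 it was 0.34. Host rows without that library were above 0 in 61 of 88, with a median of 0.05. Over all rows 52.2% were then above 0, with a median of 0.007. Without Nutlin with peptide replicate 2 of experiment 1, which had the highest sum of members there (2904 RPM), 83 were above 0 and the median was 0.10. SNORA38B, an H/ACA RNA within NOL11, had 5.38, 7.62 and 7.69 RPM in Nutlin with peptide of experiment 2 and 4.46 and 5.59 RPM in experiment 1, against 4.64, 6.65 and 5.58 RPM and 3.30 and 2.17 RPM in Nutlin with water. It was higher with peptide in 5 of 5 same-numbered comparisons, with a log2 change of 0.48 ± 0.19 (unadjusted p = 0.022, adjusted p = 1.0).

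SCARNA7, a box C/D guide for the U1 RNA, had 3.96, 4.48 and 4.88 RPM in Nutlin with peptide of experiment 2 and 17.7 and 17.8 RPM in experiment 1, against 4.28, 4.47 and 3.45 RPM and 14.9 and 2.86 RPM in Nutlin with water. The value of 2.86 RPM is that of the library that stood apart, and it is lower than every other value of experiment 1. SNORA80A had 0.879 RPM in that library, against 2.56 to 8.37 RPM in the others of experiment 1. With peptide under Nutlin, SCARNA7 had a log2 change of 0.61 ± 0.27 with all libraries and 0.25 ± 0.16 without that one, and SNORA80A had 0.76 ± 0.37 and 0.48 ± 0.36. SNORA38B had 0.45 ± 0.20 without it.

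With peptide under DMSO 63 members were above 0 and 53 below, with a median of 0.01, against 0.03 over all rows. SNORA7A had 5.61, 5.82 and 9.85 RPM in DMSO with peptide of experiment 2 and 7.19 and 10.3 RPM in experiment 1, against 13.2, 7.03 and 11.7 RPM and 11.8 and 12.7 RPM in DMSO with water. It was lower with peptide in 5 of 5, with a log2 change of -0.50 ± 0.26 (unadjusted p = 0.07, adjusted p = 1.0). SCARNA17 was lower in 5 of 5 (-0.35 ± 0.24) and SNORA80B higher in 3 of 5 (0.49 ± 0.28), neither called. No member's condition effect differed between experiments by the test of that difference, where 0.00627% of all rows were called with peptide under DMSO and 0.0% in the other comparisons. The blocked fit called no member either. Over all rows it called 0.357% with peptide under Nutlin, 0.0188% with Nutlin and 0.00627% with peptide under DMSO. An unadjusted p under 0.05 was reached there by 43 of 116 members with a lower peptide effect under Nutlin in experiment 2. In 1 member the effect was higher, and of 15958 rows 2223 were lower and 1312 higher. For Nutlin 19 members were lower and 11 higher, against 1955 and 2620 rows.

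**Figure D5:**
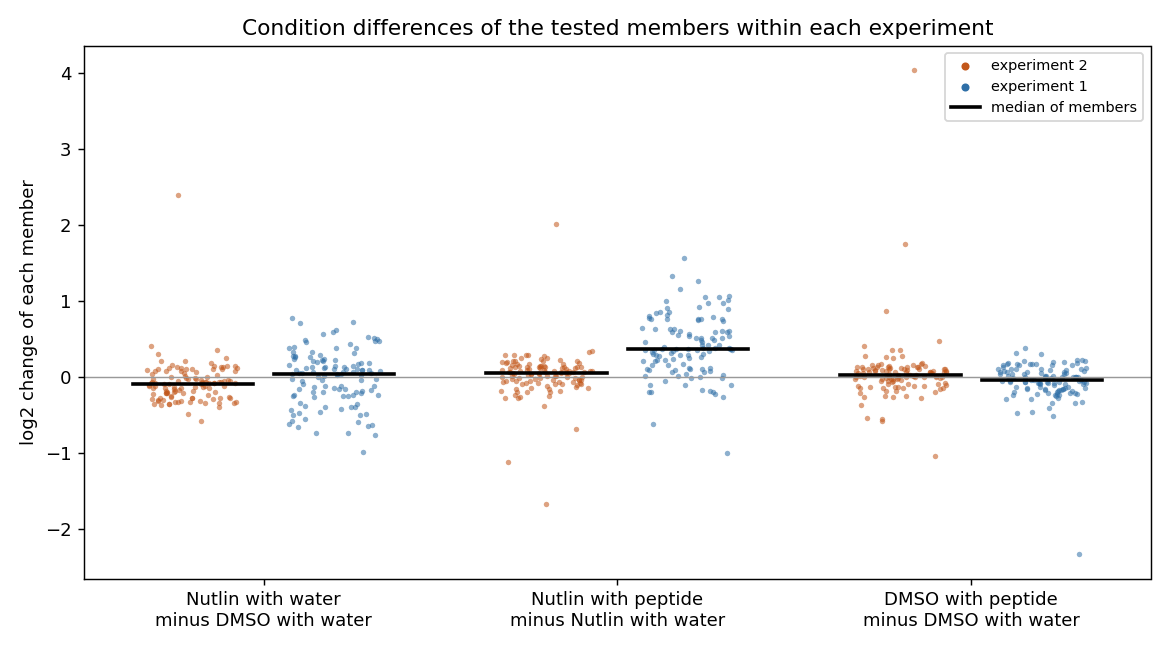
Log2 change of each of the 116 tested members in the 3 condition comparisons, with experiment 2 left of experiment 1 in each and a line at the median of members. Medians lie between -0.09 and 0.06 in experiment 2 and between -0.04 and 0.38 in experiment 1, and the highest is that of peptide under Nutlin in experiment 1.

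Nuclear RNA of the genes for proteins that bind these RNAs was looked at too, and protein was not measured. Of 8 genes of H/ACA core and assembly proteins, 4 rose and 2 fell in experiment 2 against experiment 1. That is 75% called, near the 71.4% of all rows. GAR1 rose most (1.62 ± 0.12, adjusted p = 1e-09), and NOP10 (1.00 ± 0.12), DKC1 (0.96 ± 0.10) and NHP2 (0.67 ± 0.15) rose too. DKC1 is itself the host of SNORA36A and SNORA56. The assembly factor genes SHQ1 (-1.04 ± 0.12) and NAF1 (-0.35 ± 0.10) fell, NAF1 only with library scaling (0.02 without TMM), and the helicase genes RUVBL1 and RUVBL2 were not called. Over sets GAR1, NOP10 and DKC1 rose and SHQ1 fell, where 33.6% of all rows were called. Of 6 genes of Cajal body and processing proteins, 2 rose, WRAP53 (0.67 ± 0.21) and NOLC1 (0.46 ± 0.20). Another 2 fell, TOE1 (-0.68 ± 0.21) and the ribonuclease gene PARN (-1.25 ± 0.13). PARN alone of the 6 was called over sets. The scaffold gene COIL had 0.30 ± 0.16 and was not called. No gene of either list was called in a condition comparison, nor was TERC.

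Box C/D rows, for comparison, rose in 96 and fell in 22 of 150 tested, with a median log2 change of 1.00, and over sets 68 rose and 10 fell. Of all rows 38.3% rose and 33.1% fell, and over sets 16.8% were called in each direction. Their summed level was 5168, 6789 and 12031 RPM in experiment 2 and 6166, 11078 and 25038 RPM in experiment 1, which overlapped. The difference between the box C/D rows and the members was not tested.

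Some rows touch other annotation. Opposite-strand rows were present for 5 members, and SNORA70G, at 0.0129 RPM in experiment 2 and 0.00469 RPM in experiment 1, lies opposite RAP1B, which had 56.9 and 62.9 RPM. Whether the authors counted by strand is not given in the sources used here. SNORA66 lies opposite FAM69A, which had 5.93 RPM in experiment 2 and 10.8 RPM in experiment 1. SNORA57, opposite LBHD1, fell by 3.33 ± 0.19 while LBHD1 averaged 68.7 RPM in experiment 2 and 24.7 RPM in experiment 1.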

How the data were processed

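Nuclear RNA of 20 HCT116 libraries was counted by the authors into 1 table per experiment of 26485 rows. Per the submitters' processing notes the build was hg38 and the tools were limma, bedtools and HISAT2, with no version or role. Strand use is not given in the sources used here. The deposited signal is RPM divided by the stop minus a thousandth of the start. Multiplying it back gave columns that sum to 1000000, and 100% of values were then whole reads to within 0.001. The main test was limma 3.58.1 in R 4.3.3 on log2 of TMM-scaled RPM plus 0.5, over 15958 rows with a mean of at least 0.5 RPM, with terms for condition and experiment and Benjamini-Hochberg adjustment. TMM was written out with 30% and 5% trims. A fold change understates that of low rows. Where a low member and its host both fall, a rise of the member against the host can be overstated. Values after ± are SEs from limma and cover the spread between libraries, while floors cover counting error only. A host is the smallest same-strand row of at least 3 times the length that contains the member. Plots used matplotlib 3.10.9 in Python 3.11.15. The fit was also run on simulated data, in which libraries were independent. Same-numbered libraries did not deviate together there, so that run cannot show whether the p-values given here are of the right size.

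Named members were, per condition comparison, called ones or the 4 with the smallest p, the 8 largest rises and falls between experiments, the 8 highest per kilobase in each experiment, a panel of 18, and the 6 largest rises and falls against a host. Members, lists and rules were chosen with earlier results of these data known. Same-numbered libraries were taken as pairs from the values, since no label states it: their deviations from group means correlated at 0.286 to 0.586 in experiment 1 and 0.877 to 0.940 in experiment 2. Other settings tried were other scalings, filters, pseudocounts of 0.1 and 5, limma-voom on the whole reads (11536 rows called between experiments, against 11394), limma without trend, structural rows left out, replicate blocks, 8 group means, each experiment or the DMSO with water libraries alone, other host definitions, each library left out and, added after the data were seen, means of the 5 same-numbered sets.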

Additional observations from a re-analysis of the deposited data

Results flagged for a closer look

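SNORA14B moved in opposite ways with peptide under DMSO in the 2 experiments. It was higher with peptide in every library of experiment 2 (19.7, 17.9 and 15.2 RPM in DMSO with peptide, against 0.551, 0.577 and 0.585 RPM in DMSO with water) and lower in every library of experiment 1 (1.02 and 1.92 RPM, against 8.50 and 9.71 RPM). The log2 change in experiment 2 minus that in experiment 1 was 6.37 ± 1.78 (unadjusted p = 0.0027, adjusted p = 1.0 by limma). In the Nutlin groups of experiment 2 it was at 0.439 and 0.273 RPM in 2 of 6 libraries and at 13.9 to 21.6 RPM in the other 4.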

How the results depend on the processing

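Counts of called members kept within 1.5 times between experiments under other scalings, pseudocounts of 0.1 and 5, no filter, limma-voom and limma without trend, and they were 91 to 97 with a library left out (95 with all). With a mean of at least 5 RPM, which leaves 69 members to test, 59 were called, and 39 of 53 against their host row. The DMSO with water libraries alone, with 5 of 20 libraries, gave 53 members and 39 pairs. Pairs were 65 to 69 with a library left out (67 with all). With same-numbered libraries averaged into 5 sets, added after the data were seen, 54 members and 38 pairs were called, with fewer values in the fit. Calls in condition comparisons were 0 under each setting, the replicate block among them, in which same-numbered libraries were paired. The test of differing condition effects called 0 to 2 with a library left out, the 2 being SCARNA7 in both Nutlin contrasts without Nutlin with water replicate 1 of experiment 1, which leaves the library that stood apart as the sole one of its group, assumed to vary like the other groups (1.82 ± 0.34 and -2.14 ± 0.34). Of 1733 alternative values of 56 results on named members, 1690 kept their direction and side of the threshold, 27 lost the call, 4 gained it and 12 turned sign, in 12 results in all. SCARNA9 turned sign without scaling (0.27), with structural rows left out (0.0054), and it ranged from -0.20 to 0.059 with a library left out, and SNORA80B with peptide under DMSO turned to -0.11 in experiment 1 alone; the cause was not tested. Depth limits rows under 1 RPM, where experiment 2 libraries hold few reads.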
